A study of Mus musculus with 12 samples.

Results

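The 31 genes described here carry out or regulate the breakdown of glucose to lactate, or belong to the cell's response to low oxygen. They were taken by name as a fixed list of glycolysis and hypoxia response genes. Each name matched exactly 1 of the 35275 genes in the count table, and all 31 were among the 15150 genes that had enough counts to be tested. The cells were cardiac fibroblasts from the hearts of 12-week-old C57BL/6 mice, used at passage 2, from Smad7 fl/fl animals. In these animals loxP sites surround the Smad7 promoter region and its exon 1, and the Cre recombinase removes that part. The cells were infected for 48 hours at a multiplicity of infection of 100 with an adenovirus carrying Cre (Smad7-KO fibroblasts) or with a control adenovirus, which the labels describe as expressing GFP and the study's methods as empty. The labels call the control cells wild type, but controls and Smad7-KO fibroblasts share the floxed gene and exposure to adenovirus. TGF-β1 was then added at 10 ng/ml or left out, for 2 hours by one label and 4 hours by another. Smad7 is the inhibitory Smad that TGF-β induces and that restrains TGF-β receptor signaling, so the design asks how these genes respond to TGF-β1 and whether loss of Smad7 changes their level or that response. Polyadenylated RNA was sequenced in 3 libraries for each of the 4 conditions. The labels call the samples independent without saying whether they came from separate cultures or animals, so the p values measure the spread between these libraries, which may be technical.

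Glycolysis converts glucose to pyruvate in the cytosol, and its flux is set mostly at glucose entry, at phosphorylation by hexokinase and at phosphofructokinase, which fructose-2,6-bisphosphate activates. Pyruvate is either reduced to lactate, which leaves the cell through monocarboxylate transporters, or enters the mitochondria through pyruvate dehydrogenase, which the PDK kinases inhibit. When oxygen is low, the prolyl hydroxylases encoded by Egln genes stop marking HIF-1α for degradation, and the stabilized factor binds promoters of most glycolytic genes. HIF-1α is controlled mainly as a protein, which RNA-Seq does not measure. Activated fibroblasts in injured tissue are known for high glycolytic activity.

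Total counts per library were 19056916 to 25371321 (median 22660845). The spread between replicate libraries beyond counting noise, as a biological coefficient of variation, was largest for the unstimulated control libraries, at 0.333, and 0.138 for control with TGF-β1, 0.0529 for Smad7-KO without and 0.0996 for Smad7-KO with TGF-β1. Unstimulated control libraries 2 and 3 stood apart from the rest. Among the 11 enzymes from Gpi1 to Pkm and Ldha, which are described below, library 2 was the highest of all 12 libraries for 8 and library 3 the lowest for 5. Smad7 itself, the check on the labels, was lower in Smad7-KO than in control fibroblasts, with log2 fold changes of -1.34 without TGF-β1 and -0.92 with it (adjusted p = 9.02e-06 and 1.15e-04). Smad7 RNA was still counted in Smad7-KO libraries and rose with TGF-β1 by 1.39 on the log2 scale (adjusted p = 3.19e-06) to 80.8, 70.0 and 79.5 CPM (counts relative to the TMM-normalized library size), which overlapped the 71.4, 74.6 and 77.2 CPM of unstimulated control libraries. Counts per gene do not tell which exons the reads came from. The summed level of 11 macrophage markers was 15940 to 25780 CPM and that of 10 fibroblast markers 10480 to 14190 CPM over the 12 libraries, so the cultures held RNA of both kinds. Whether a gene differs through fewer cells of a type or through less RNA per cell cannot be told apart in bulk libraries.

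Levels of different genes are compared here only as FPKM, which divides by gene length. Averaged over the 12 libraries, Gapdh was highest at 1018 FPKM, followed by Aldoa at 719, Pkm at 630.3, Eno1 at 542, Ldha at 308, Pgk1 at 221 and Tpi1 at 173 FPKM. These encode the enzymes of the lower steps and of lactate formation. The regulated steps stood far lower, with Slc2a1 at 19.4, Pfkfb3 at 18.1 and Hk2 at 14.0 FPKM, and the lowest genes were Eno2 at 1.52 and Ankrd37 at 1.27 FPKM. The 10 remaining enzymes of the pathway, which are Gpi1, Aldoa, Aldoc, Tpi1, Gapdh, Pgk1, Pgam1, Eno1, Eno2 and Pkm, made up 91.3 to 94.9% of the summed FPKM of the 31 genes together with Ldha, and the other 20 genes the rest. The 31 genes took 0.696 to 0.932% of all counts in a library. The copies and relatives that were looked up by name held few counts. Pgam1-ps2 had 287 counts, Gapdhs 280, Eno1b 234, Pgk1-rs7 46 and Ldha-ps2 36 over the 12 libraries, against 44798 for Pgam1, 386679 for Gapdh, 293874 for Eno1, 108006 for Pgk1 and 145257 for Ldha. How reads that match both a gene and its copy were counted was not examined. The heat map of all 31 genes shows that the largest departures from a gene's mean were those of Hk2 and Pfkfb3.

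**Figure D1:**
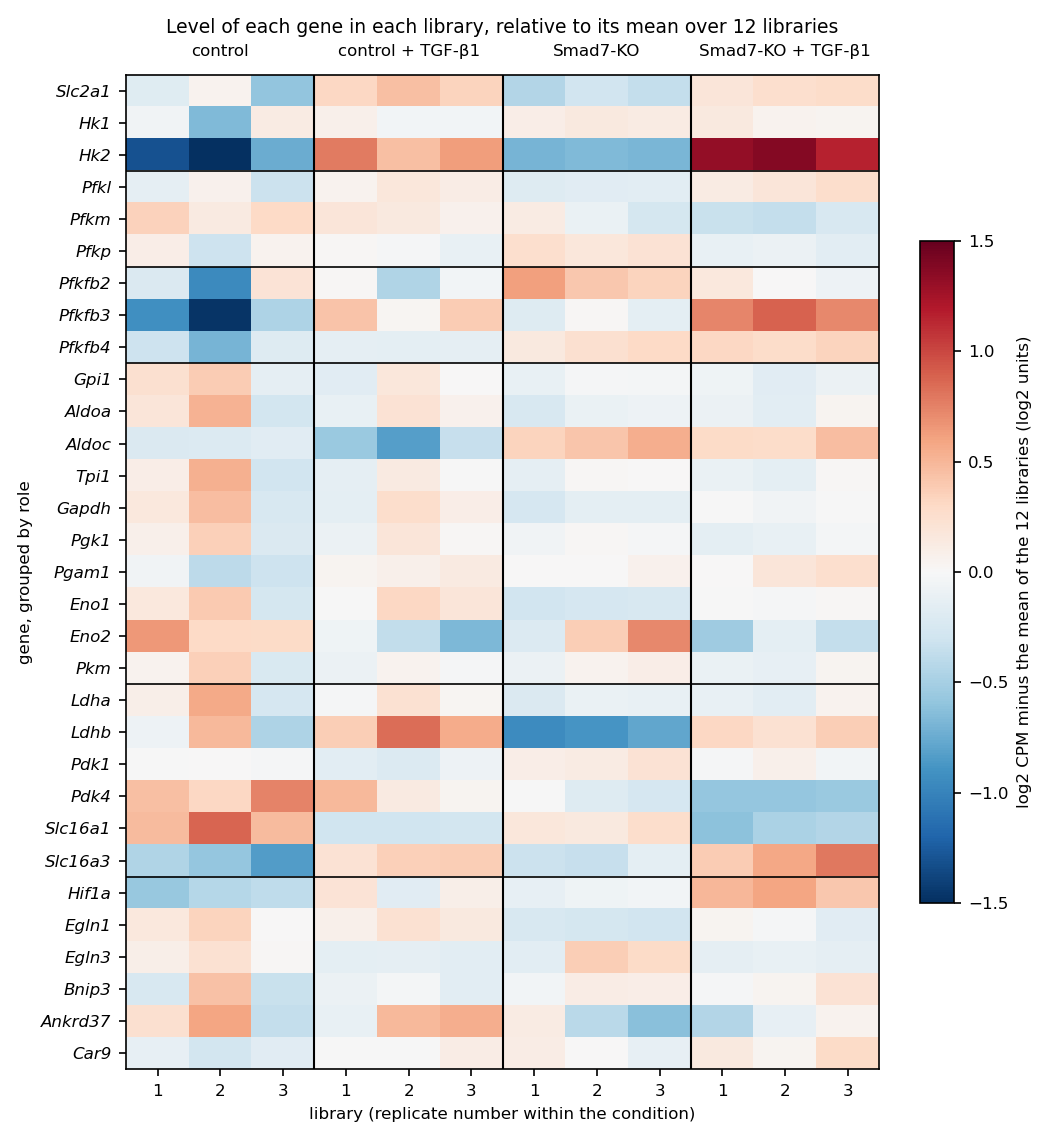
Heat map of the 31 genes (rows, grouped by role with black lines) in the 12 libraries (columns, by condition and replicate number), colored by log2 CPM minus the gene's mean over the 12 libraries, with the color scale ending at 1.5 in both directions. Hk2 and Pfkfb3 are low in the unstimulated control libraries and high in the TGF-β1 Smad7-KO libraries, whereas the rows from Gpi1 to Ldha, other than Aldoc, Pgam1 and Eno2, are highest in unstimulated control library 2.

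TGF-β1 raised Hk2, Pfkfb3, Slc16a3, Slc2a1 and Hif1a and lowered Slc16a1 in control and in Smad7-KO fibroblasts. With edgeR fitted to all 12 libraries, neither Ldha nor any of the 10 enzymes from Gpi1 to Pkm passed the test with TGF-β1. Some other fits called Pgam1, Eno1 or Eno2, as given below. In control fibroblasts 5 of the 31 genes (Hk2, Pfkfb3, Slc16a3, Slc2a1 and Hif1a) were higher with TGF-β1, where 5.04% of all 15150 tested genes were called higher, and 1 (Slc16a1) was lower, where 3.33% were called lower. In Smad7-KO fibroblasts 7 genes rose, the same 5 together with Ldhb and Pfkl, against 5.33% of all tested genes, and Slc16a1 again fell, against 4.9%. A gene was called where its adjusted p was at most 0.05, from the quasi-likelihood test of edgeR with the Benjamini-Hochberg method over all tested genes, and every adjusted p below has this source. The 6 calls in control fibroblasts were all made in the same direction in Smad7-KO fibroblasts, where they were 75% of the 8 calls. How often calls were shared over all tested genes was not counted. The libraries of both comparisons are separate, but both comparisons use the same estimate of spread. The median log2 fold change of the 31 genes was -0.017 in control and 0.070 in Smad7-KO fibroblasts, against -0.032 and -0.010 over all tested genes.

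Glucose uptake and phosphorylation held the largest response. Hk2 (ENSMUSG00000000628, chromosome 6 from 82725025 to 82774454) encodes the inducible hexokinase that traps glucose in the cell as glucose-6-phosphate. It was at 24.8, 20.3 and 36.6 CPM in unstimulated control libraries and at 105, 84.0 and 95.0 CPM in TGF-β1 control libraries. In Smad7-KO fibroblasts it was at 37.8, 38.8 and 38.0 CPM without and at 152, 159 and 136 CPM with TGF-β1. Every stimulated library was above every unstimulated library of either genotype. The log2 fold change with TGF-β1 was 1.80 (SE 0.185, adjusted p = 9.11e-05) in control and 1.96 (SE 0.185, adjusted p = 4.05e-05) in Smad7-KO fibroblasts, which is 3.47-fold and 3.90-fold. Slc2a1 (ENSMUSG00000028645, chromosome 4 from 119108711 to 119137330), the glucose transporter GLUT1, was at 43.5, 51.2 and 32.8 CPM in unstimulated and 61.5, 67.9 and 62.2 CPM in TGF-β1 control libraries, and at 36.6, 40.6 and 38.7 and 55.9, 59.0 and 59.7 CPM in the matching Smad7-KO libraries. Stimulated and unstimulated libraries did not overlap in either genotype. Its log2 fold change was 0.59 (SE 0.139, adjusted p = 0.0205) in control and 0.59 (SE 0.139, adjusted p = 0.0173) in Smad7-KO fibroblasts. In contrast, the constitutive hexokinase Hk1 passed the test in no comparison, with log2 fold changes for TGF-β1 of 0.16 in control (95% interval -0.19 to 0.51) and -0.045 in Smad7-KO fibroblasts (-0.39 to 0.30).

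At the phosphofructokinase step the response lay with Pfkfb3 (ENSMUSG00000026773, chromosome 2 from 11471430 to 11502101), the family member with high kinase activity, which makes the activator fructose-2,6-bisphosphate. Pfkfb3 was at 44.0, 30.0 and 60.5 CPM in unstimulated and 113, 85.4 and 108 CPM in TGF-β1 control libraries. In Smad7-KO fibroblasts it was at 73.1, 84.2 and 75.5 CPM without and 138, 154 and 137 CPM with TGF-β1. The groups did not overlap in either genotype, and the unstimulated control libraries were spread over a 2-fold range, from 30.0 in library 2 to 60.5 CPM in library 3. The log2 fold change was 1.19 (SE 0.208, adjusted p = 0.00356) in control and 0.88 (SE 0.206, adjusted p = 0.0167) in Smad7-KO fibroblasts. The relatives Pfkfb2 and Pfkfb4 did not pass the test with TGF-β1 in either genotype (log2 fold changes 0.088 and 0.25 in control, -0.43 and 0.077 in Smad7-KO). Of the phosphofructokinase subunits, Pfkl, the liver-type subunit, was at 114, 131 and 101 CPM in unstimulated and 129.8, 141 and 136 CPM in TGF-β1 control libraries, and at 109.9, 111 and 112 and 137, 143 and 151 CPM in the matching Smad7-KO libraries. It rose with TGF-β1 in Smad7-KO fibroblasts by 0.37 (SE 0.104, adjusted p = 0.0447) on the log2 scale, and its change in control fibroblasts was 0.23 (SE 0.104, adjusted p = 0.232). The Smad7-KO call of Pfkl was lost in 10 of the 12 fits that left out 1 library. Pfkm and Pfkp did not pass the test with TGF-β1.

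Of the genes that handle lactate, both transporters passed the test with TGF-β1 in each genotype and Ldhb in Smad7-KO fibroblasts. Slc16a3 (ENSMUSG00000025161, chromosome 11 from 120948480 to 120960868) encodes MCT4, the low-affinity transporter known for lactate export. It was at 28.0, 25.6 and 21.4 CPM in unstimulated and 44.4, 48.9 and 49.3 CPM in TGF-β1 control libraries, and at 30.5, 30.2 and 34.6 and 49.9, 57.3 and 66.2 CPM in the matching Smad7-KO libraries. Slc16a1 (ENSMUSG00000032902, chromosome 3 from 104638668 to 104658462), which encodes the high-affinity transporter MCT1, was at 35.5, 46.9 and 35.5 CPM in unstimulated and 20.8, 20.9 and 21.2 CPM in TGF-β1 control libraries. In Smad7-KO fibroblasts Slc16a1 was at 28.8, 28.3 and 30.7 CPM without and 16.7, 18.4 and 18.8 CPM with TGF-β1. Both transporters thus moved without overlap between stimulated and unstimulated libraries, Slc16a3 upward and Slc16a1 downward. The log2 fold change of Slc16a3 was 0.93 (SE 0.132, adjusted p = 8.90e-04) in control and 0.86 (SE 0.131, adjusted p = 0.00113) in Smad7-KO fibroblasts. For Slc16a1 it was -0.91 (SE 0.120, adjusted p = 5.27e-04) in control and -0.70 (SE 0.121, adjusted p = 0.00258) in Smad7-KO fibroblasts. Ldhb (ENSMUSG00000030246, chromosome 6 from 142490249 to 142507957), the H subunit of lactate dehydrogenase, was at 31.2, 46.0 and 24.0 CPM in unstimulated and 42.5, 58.9 and 48.6 CPM in TGF-β1 control libraries, which overlapped. In Smad7-KO fibroblasts Ldhb was at 17.1, 17.8 and 19.1 CPM without and 40.8, 38.5 and 42.7 CPM with TGF-β1, a rise with no overlap. Its log2 fold change was 1.17 (SE 0.204, adjusted p = 0.00284) in Smad7-KO fibroblasts and 0.57 (SE 0.200, adjusted p = 0.118) in control fibroblasts. Ldha, the abundant M subunit, was at 453 to 803 CPM in unstimulated and 531 to 632 CPM in TGF-β1 control libraries and did not pass the test (log2 fold changes -0.091 and 0.072). The pyruvate dehydrogenase kinases Pdk1 and Pdk4 were at log2 fold changes of -0.14 and -0.28 in control and of -0.14 and -0.43 in Smad7-KO fibroblasts, and neither passed the test.

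Of the 6 hypoxia genes only Hif1a (ENSMUSG00000021109, chromosome 12 from 73901375 to 73947530), which encodes the oxygen-regulated subunit of HIF-1, passed the test with TGF-β1. Hif1a was at 89.7, 98.4 and 102 CPM in unstimulated and 152, 118 and 141 CPM in TGF-β1 control libraries, and at 122, 127 and 129 and 188, 199.8 and 175 CPM in the matching Smad7-KO libraries. Stimulated libraries lay above unstimulated ones in each genotype, although TGF-β1 control library 2 was below all 3 unstimulated Smad7-KO libraries. On the log2 scale Hif1a rose by 0.50 (SE 0.110, adjusted p = 0.0137) in control and 0.57 (SE 0.110, adjusted p = 0.00534) in Smad7-KO fibroblasts. The others of these 6 hypoxia genes did not pass. Bnip3, a mitophagy receptor, was at log2 fold changes of -0.091 and 0.025 in control and Smad7-KO fibroblasts. In the same order, Car9, the membrane carbonic anhydrase IX, was at 0.22 and 0.16, and Egln1 at -0.017 and 0.22. Egln3 was at -0.26 and -0.31, and Ankrd37 at 0.13 and 0.11. Ankrd37 had only 17 to 39 counts per library and a 95% interval of -0.57 to 0.83 in control fibroblasts, so its change was estimated only within that wide range.

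**Figure D2:**
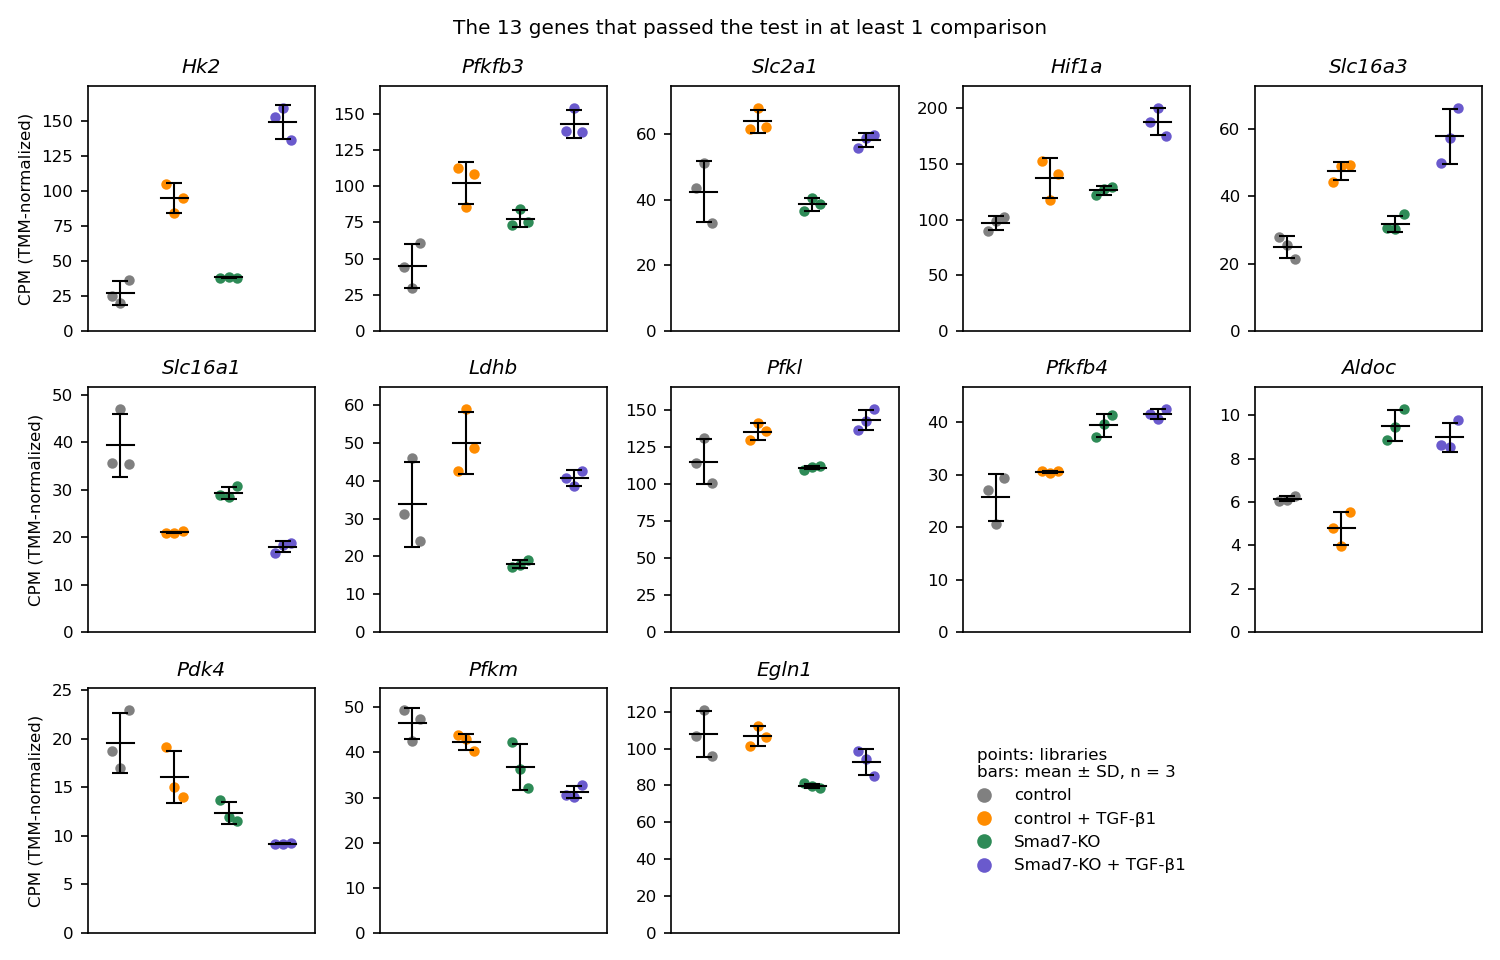
CPM (vertical axes, starting at 0) of the 13 genes that passed the test in at least 1 comparison, with each library as a point and the mean ± SD of 3 libraries as black bars, for control (gray), TGF-β1 control (orange), Smad7-KO (green) and TGF-β1 Smad7-KO (purple) fibroblasts. Hk2, Pfkfb3, Slc2a1, Hif1a and Slc16a3 are higher and Slc16a1 lower in the stimulated libraries of each genotype, and Aldoc and Pfkfb4 are higher and Pdk4 and Pfkm lower in Smad7-KO libraries.

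With each library left out in turn, Hk2, Slc16a1 and Slc16a3 kept their calls with TGF-β1 in both genotypes in all 12 fits, as did Pfkfb3 in control and Ldhb and Hif1a in Smad7-KO fibroblasts. The calls of Slc2a1 were lost in 4 of the 12 fits in each genotype, that of Hif1a in control in 3 and that of Pfkfb3 in Smad7-KO fibroblasts in 4. When edgeR was fitted to the control libraries alone, the TGF-β1 calls of Pfkfb3 (adjusted p = 0.0836), Hif1a (0.169) and Slc2a1 (0.2145) were also lost. Counts of genes called higher ranged from 3, without TGF-β1 control library 1 or 3, to 7, without unstimulated control library 2, in control fibroblasts, and from 4, without unstimulated Smad7-KO library 1 or 3 or TGF-β1 Smad7-KO library 2, to 7 in Smad7-KO fibroblasts. Without unstimulated control library 2, Ldhb and Pfkl were also called higher in control fibroblasts.

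Promoter sequence was read for all 31 genes from RefSeq windows of 250 bases before each transcription start on GRCm38.p6, giving 46 windows because some genes have more than 1 start. The letters ACGTG, a core of the hypoxia response element, were found on either strand in the windows of 18 of the 31 genes (58.1%), against 18.5% of all 27025 genes with a window. GCGTG, the other form of that core, was found in 64.5% of the 31 genes against 30.9% of all genes, and either form in 90.3% against 41.5%. CAGAC, the letters of the Smad-binding CAGA box, was found in 48.4% against 45.8%. A gene counted if any of its windows held the letters, and all genes means every gene with a window, tested here or not. Counted by window, ACGTG was found in 47.8% against 16.6%. The windows of the 31 genes also held more CpG, at a median of 5.4 per 100 bases against 2.4 in all windows, and each hypoxia core holds a CpG, and whether this alone sets the share was not tested. All 6 genes called with TGF-β1 in both genotypes hold ACGTG, the falling Slc16a1 included. CACGTG reads as ACGTG on both strands and is counted on each. The windows of Hk2, Slc16a1 and Hif1a are shown because they cover the gene with the largest rise, the gene that fell and the hypoxia factor itself. They are written on the strand of the gene up to the base before the RefSeq start, with ACGTG and the other core GCGTG in capitals, as well as their reverse complements, CACGT for the first and CACGC for the second. The RefSeq start need not match the gene coordinates given above, and the Hif1a window lies within those of Hif1a. The Hk2 window lies at chr6:82774455-82774704 on the minus strand, that of Slc16a1 at chr3:104638414-104638663 and that of Hif1a at chr12:73907617-73907866, both on the plus strand. A match is a description of the letters and not a bound site.
Hk2: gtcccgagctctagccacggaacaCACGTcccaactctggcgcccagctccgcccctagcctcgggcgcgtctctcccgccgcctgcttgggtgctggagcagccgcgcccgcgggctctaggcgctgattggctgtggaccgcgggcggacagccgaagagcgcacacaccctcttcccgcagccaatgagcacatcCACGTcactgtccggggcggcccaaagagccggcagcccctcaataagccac
Slc16a1: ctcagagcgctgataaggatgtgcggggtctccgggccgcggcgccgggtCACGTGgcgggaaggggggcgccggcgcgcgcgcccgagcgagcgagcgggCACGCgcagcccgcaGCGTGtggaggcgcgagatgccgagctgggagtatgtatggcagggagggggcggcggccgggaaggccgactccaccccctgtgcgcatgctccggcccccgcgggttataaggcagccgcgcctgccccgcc
Hif1a: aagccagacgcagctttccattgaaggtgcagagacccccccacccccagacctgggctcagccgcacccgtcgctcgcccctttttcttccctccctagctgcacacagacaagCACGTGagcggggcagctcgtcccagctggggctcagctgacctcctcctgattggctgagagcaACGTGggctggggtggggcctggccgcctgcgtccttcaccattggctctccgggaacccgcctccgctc
In these windows Hk2 holds ACGTG on the reverse strand at 2 places and neither GCGTG nor CAGAC, Slc16a1 holds 1 CACGTG and 2 matches to GCGTG, and Hif1a holds 1 CACGTG, 1 further ACGTG and 3 matches to CAGAC.

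The Smad7-KO comparisons called 9 and 6 of these genes. In unstimulated fibroblasts 4 of the 31 genes were higher in Smad7-KO than in control libraries (Pfkfb3, Aldoc, Pfkfb4 and Hif1a), where 12.1% of all tested genes were called higher, and 5 were lower (Ldhb, Pdk4, Egln1, Slc16a1 and Pfkm), where 13.7% were called lower. In TGF-β1-stimulated fibroblasts 4 were higher (Aldoc, Hk2, Hif1a and Pfkfb4), against 5.72% of all tested genes, and 2 were lower (Pdk4 and Pfkm), against 7.23%. The unstimulated counts are thus close to the share called among all genes. Aldoc, Hif1a, Pfkfb4, Pdk4 and Pfkm were called in the same direction in both comparisons, which is 55.6% of the 9 unstimulated and 83.3% of the 6 stimulated calls. The matching share over all tested genes was not counted here either. The median log2 fold change of the 31 genes was -0.056 without and -0.043 with TGF-β1, against -0.015 and -0.021 over all tested genes.

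Aldoc (ENSMUSG00000017390, chromosome 11 from 78322968 to 78327781), the brain-type aldolase, showed the largest difference of the 31 genes between stimulated genotypes. It was at 6.05, 6.11 and 6.29 CPM in unstimulated control and 8.87, 9.44 and 10.3 CPM in unstimulated Smad7-KO libraries, and at 4.81, 3.99 and 5.54 and 8.62, 8.55 and 9.77 CPM in the matching TGF-β1 libraries. All 6 Smad7-KO libraries were above all 6 control libraries. The log2 fold change was 0.63 (SE 0.142, adjusted p = 0.0108) without and 0.91 (SE 0.144, adjusted p = 0.00220) with TGF-β1. Even so Aldoc gave at most 0.544% of the summed FPKM of Aldoa and Aldoc. Pfkfb4 (ENSMUSG00000025648, chromosome 9 from 108991902 to 109032223), a hypoxia-inducible relative of Pfkfb3, was at 27.0, 20.7 and 29.4 CPM in unstimulated control and 37.2, 39.7 and 41.5 CPM in unstimulated Smad7-KO libraries. With TGF-β1 it was at 30.7, 30.4 and 30.7 CPM in control and 41.5, 40.7 and 42.5 CPM in Smad7-KO libraries, so the genotypes did not overlap. Its log2 fold change was 0.61 (SE 0.121, adjusted p = 0.00577) without and 0.44 (SE 0.121, adjusted p = 0.0325) with TGF-β1, and the stimulated call was lost in 9 of the 12 fits that left out 1 library. Pfkfb3 was higher in unstimulated Smad7-KO libraries by 0.79 (SE 0.207, adjusted p = 0.0209), and with TGF-β1 the difference was 0.49 (SE 0.204, adjusted p = 0.142). Hif1a was higher by 0.38 (SE 0.110, adjusted p = 0.0298) without and 0.45 (SE 0.110, adjusted p = 0.0195) with TGF-β1. Each of these calls was lost in 4 of the 12 fits that left out 1 library, the first without unstimulated control library 1 or any 1 of the 3 unstimulated Smad7-KO libraries, the second without TGF-β1 control library 2 or 3 or TGF-β1 Smad7-KO library 1 or 2. Once each library's trend on gene length was removed, the unstimulated difference of Hif1a was 0.13 (adjusted p = 0.371), so this call was lost with that correction.

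Hk2 was higher in Smad7-KO fibroblasts with TGF-β1, by 0.65 (SE 0.179, adjusted p = 0.0331), with all 3 Smad7-KO libraries above all 3 control libraries, and this call was lost in 9 of the 12 fits that left out 1 library. Without TGF-β1 the difference was 0.49 (SE 0.181, adjusted p = 0.0653). Pdk4 (ENSMUSG00000019577, chromosome 6 from 5483351 to 5496309), a pyruvate dehydrogenase kinase that favors use of fatty acids over glucose, was at 18.7, 17.0 and 22.9 CPM in unstimulated control and 13.7, 12.0 and 11.5 CPM in unstimulated Smad7-KO libraries. In stimulated cells Pdk4 was at 19.2, 15.1 and 14.0 CPM in control and 9.17, 9.14 and 9.29 CPM in Smad7-KO libraries. The genotypes did not overlap in either state, and the log2 fold change was -0.66 (SE 0.151, adjusted p = 0.0116) without and -0.81 (SE 0.152, adjusted p = 0.00590) with TGF-β1. Pfkm (ENSMUSG00000033065, chromosome 15 from 98092589 to 98132447), the muscle-type phosphofructokinase subunit, was at 49.4, 42.6 and 47.4 CPM in unstimulated control and 42.3, 36.2 and 32.1 CPM in unstimulated Smad7-KO libraries, and at 43.8, 43.0 and 40.3 and 30.7, 30.1 and 32.7 CPM in the matching TGF-β1 libraries. The log2 fold change of Pfkm was -0.33 (SE 0.112, adjusted p = 0.0484) without TGF-β1, a call lost in 9 of 12 such fits, and -0.44 (SE 0.113, adjusted p = 0.0245) with it, lost in 6. Ldhb was lower in unstimulated Smad7-KO libraries, with a log2 fold change of -0.90 (SE 0.203, adjusted p = 0.0110), whereas with TGF-β1 the libraries of the genotypes overlapped and the difference was -0.30 (SE 0.199, adjusted p = 0.334). Also lower in unstimulated Smad7-KO libraries were Slc16a1, with a log2 fold change of -0.42 (SE 0.119, adjusted p = 0.0275), and Egln1 (ENSMUSG00000031987, chromosome 8 from 124908596 to 124949254), the main oxygen-sensing prolyl hydroxylase, with -0.44 (SE 0.104, adjusted p = 0.0143). Egln1 was at 107, 121 and 96.1 CPM in unstimulated control and 81.1, 79.8 and 78.6 CPM in unstimulated Smad7-KO libraries, without overlap, and at 102, 112 and 106 and 98.6, 94.6 and 85.1 CPM in the matching TGF-β1 libraries. With TGF-β1 the differences of Slc16a1 and Egln1 were -0.22 and -0.20, and neither passed the test.

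The calls between unstimulated genotypes changed with the libraries that entered the fit. Without unstimulated control library 3, 8 genes were called higher and 12 lower, and the abundant enzymes Aldoa, Eno1, Gapdh, Gpi1, Ldha and Tpi1 were then among the lower ones. Without unstimulated control library 2 the counts were 5 higher and 5 lower, and without unstimulated Smad7-KO library 3 they were 1 and 1, Pfkfb4 and Ldhb. When edgeR was fitted to only the 6 unstimulated libraries, none of the 31 genes was called, and 9 had an unadjusted p under 0.05. In this comparison Pfkfb4 and Ldhb, and with TGF-β1 Aldoc and Pdk4, kept their calls in all 12 fits that left out 1 library. The unstimulated call of Pfkfb3 was lost in 4 of these fits, that of Slc16a1 in 3, those of Egln1 and Pdk4 in 2 each and that of Aldoc in 1, in every case without an unstimulated library. The summed endothelial marker level was 632 to 705 CPM in control and 214 to 252 CPM in Smad7-KO libraries, with 10 of the 13 tested endothelial markers called lower and 1 higher in each comparison. Eng was the highest of these markers, at 161.7 to 356.5 CPM over the 12 libraries. Cldn5, at 3 counts or fewer in every Smad7-KO library, was low in controls too, at most 0.229 CPM, so it cannot show a difference. Of 11 macrophage markers, 6 were called higher in Smad7-KO fibroblasts without and 5 with TGF-β1, and none lower, with summed levels of 16000 to 25780 and 22900 to 25160 CPM in unstimulated control and Smad7-KO libraries and of 15940 to 18580 and 22050 to 25070 CPM with TGF-β1. Of 10 fibroblast markers, 2 were called higher and 3 lower in each. The part of these other cells in the Smad7-KO differences was not tested. With TGF-β1 the endothelial list had 1 gene called higher and 1 lower in each genotype, the macrophage list 0 and 1, and the fibroblast list none, with 1 fibroblast marker at an unadjusted p under 0.05 in each genotype. Markers of cardiomyocytes and of smooth muscle cells and pericytes were low throughout, at summed levels of 18.7 to 78.7 and 34.5 to 69.0 CPM.

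**Figure D3:**
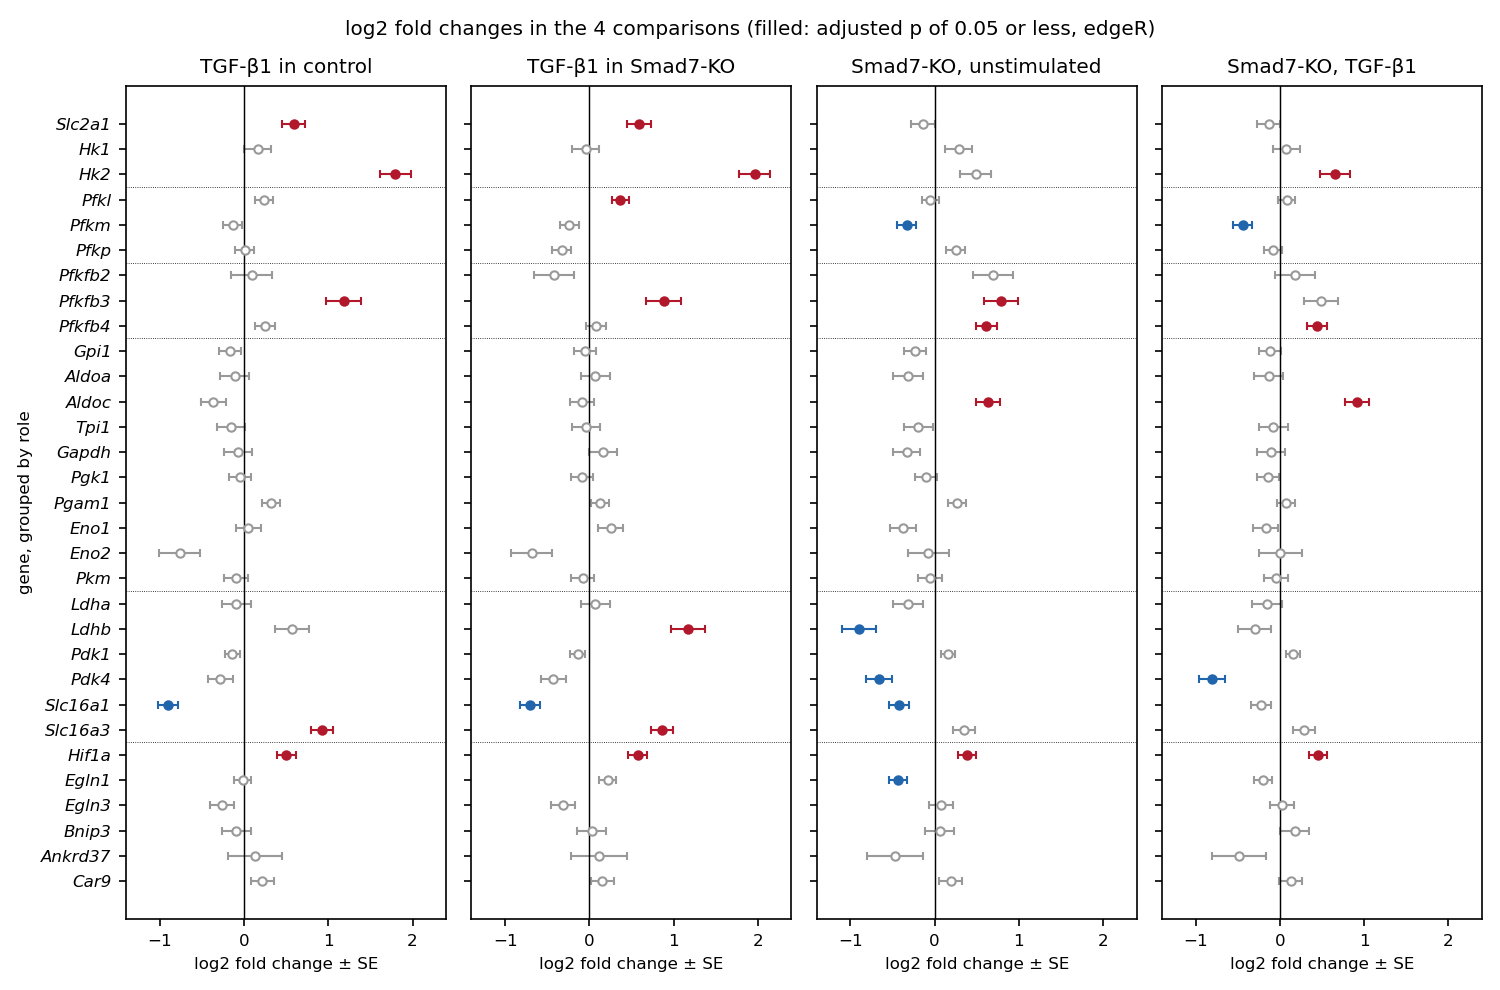
log2 fold changes with standard errors (horizontal axes) of the 31 genes, grouped by role with dotted lines, in the 4 pairwise comparisons, where filled red points passed the test as higher and filled blue points as lower. Hk2 with TGF-β1 is the largest difference, at 1.80 in control and 1.96 in Smad7-KO fibroblasts, and the row of enzymes from Gpi1 to Pkm holds 1 filled point in each Smad7-KO comparison, Aldoc, and none with TGF-β1.

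The interaction, which tests whether the response to TGF-β1 differed between Smad7-KO and control fibroblasts, called none of the 31 genes in edgeR, and none had an unadjusted p under 0.05. Over all genes 0.0198% were called, which is 3 genes, and 392 had an unadjusted p under 0.05, and DESeq2 also called none of the 31. The estimates ran from -0.51 for Pfkfb2 to 0.60 for Ldhb. The Ldhb response was larger in Smad7-KO fibroblasts by that amount with a 95% interval of -0.018 to 1.22 (adjusted p = 0.980, unadjusted p = 0.0558, edgeR), so the call of Ldhb in 1 genotype only does not show that the responses differ. For Hk2 the difference between the responses was 0.17 (95% interval -0.39 to 0.72), for Slc2a1 0.0031 (-0.42 to 0.43), for Slc16a3 -0.064 (-0.47 to 0.34), for Hif1a 0.072 (-0.27 to 0.41), for Pfkfb3 -0.30 (-0.94 to 0.33) and for Slc16a1 0.20 (-0.17 to 0.57). A p that misses the threshold here does not show equal responses.

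Within families of enzymes that carry out the same step, the balance of isozymes moved with TGF-β1 (level per length, as the share of the family's summed FPKM in each library, a description with no test). Hk2 made up 18.7 to 23.1% of hexokinase FPKM, counted over Hk1 and Hk2, in unstimulated and 43.6 to 47.1% in TGF-β1 control libraries. In Smad7-KO libraries it made up 23.7 to 23.9% without and 54.1 to 57.8% with TGF-β1, so that Hk2 was the larger of the pair only in stimulated Smad7-KO libraries. Slc16a3 made up 35.8 to 44.6% of the transporter pair in unstimulated and 68.5 to 70.5% in TGF-β1 control libraries, and 51.9 to 53.5% and 75.3 to 78.2% in the matching Smad7-KO libraries. MCT4 RNA was thus the larger share in all libraries but those of unstimulated control. Pfkfb3 went from 44.4 to 51.0% of its family without to 60.9 to 65.8% with TGF-β1 in control fibroblasts, and from 49.2 to 52.6% to 64.4 to 67.6% in Smad7-KO fibroblasts. Ldhb stayed a minor share of lactate dehydrogenase, at 6.70 to 7.20% in unstimulated and 9.79 to 11.2% in TGF-β1 control libraries, and at 4.57 to 4.94% and 9.37 to 9.92% in the matching Smad7-KO libraries. Pdk4 moved by genotype, at 39.1 to 46.7% of the Pdk1 and Pdk4 pair in unstimulated control and 27.2 to 32.5% in unstimulated Smad7-KO libraries, and at 35.8 to 44.7% and 24.7 to 26.5% with TGF-β1. Aldoa and Eno1 made up nearly all of their families throughout, with 99.5% the lowest share of each. The bar chart of isozyme shares shows these balances side by side.

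**Figure D4:**
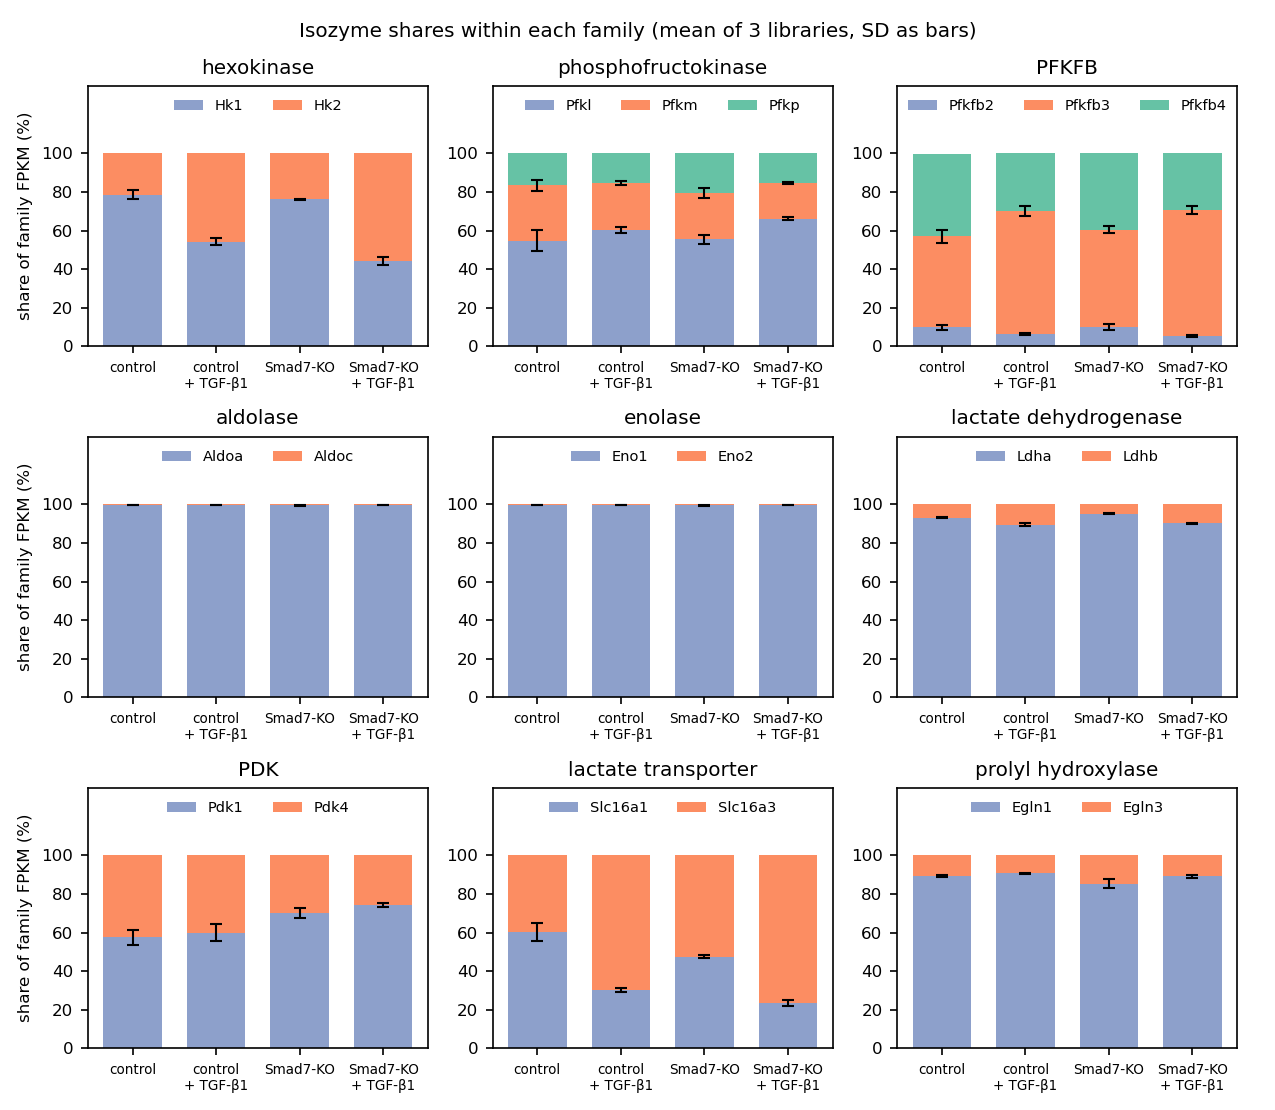
Share of each isozyme in the summed FPKM of its family (vertical axes, percent from 0), as stacked bars of the mean of 3 libraries with SD as black lines, for 9 families in the 4 conditions. Only genes of the fixed list are counted, so Hk3 is left out of hexokinase and Slc16a7 of the lactate transporters. Hk2, Slc16a3 and Pfkfb3 take larger shares in the TGF-β1 conditions, whereas aldolase and enolase are almost wholly Aldoa and Eno1 in every condition.

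The remaining 18 genes passed the test in none of the 5 comparisons. They are Hk1, Gpi1, Pfkp, Pfkfb2, Aldoa, Tpi1, Gapdh, Pgk1, Pgam1, Eno1, Eno2, Pkm, Ldha, Pdk1, Egln3, Bnip3, Ankrd37 and Car9. Their log2 fold changes with TGF-β1 ran from -0.77 (Eno2) to 0.32 (Pgam1) in control and from -0.69 (Eno2) to 0.26 (Eno1) in Smad7-KO fibroblasts. Between genotypes they ran from -0.47 (Ankrd37) to 0.70 (Pfkfb2) without and from -0.49 (Ankrd37) to 0.18 (Pfkfb2) with TGF-β1. Of these, Eno2, the neuronal enolase, was at 6.37, 4.97 and 4.93 CPM in unstimulated and 3.88, 3.13 and 2.53 CPM in TGF-β1 control libraries, without overlap, and missed the threshold at an adjusted p of 0.0880. Pfkfb2 was at 8.61, 5.14 and 11.5 CPM in unstimulated control and 15.3, 13.3 and 12.6 CPM in unstimulated Smad7-KO libraries and missed it at 0.0517. Once each library's trend on gene length was removed, Bnip3 was called higher in both Smad7-KO comparisons. Under that correction Pgam1 and Pfkfb2 were called higher between unstimulated genotypes, and Pgam1 with TGF-β1 in control fibroblasts. Eno2 was then called lower with TGF-β1 in control and Pfkp in Smad7-KO fibroblasts. DESeq2 called Pgam1 higher and Eno2 lower with TGF-β1 in control fibroblasts, and Pgam1 and Pfkfb2 higher between unstimulated genotypes. With edgeR fitted to the Smad7-KO libraries alone, Eno1 was called higher and Eno2, Pfkfb2 and Pfkp lower with TGF-β1. For Gapdh, which is often used as a reference gene, the 95% interval of the TGF-β1 log2 fold change was -0.43 to 0.29 in control and -0.20 to 0.52 in Smad7-KO fibroblasts, and for Pkm, the muscle-type pyruvate kinase, it was -0.40 to 0.21 and -0.39 to 0.23. A miss of the threshold therefore does not show that these genes stayed level.

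Other genes of the same pathways were read from 2 lists. Of 44 tested genes of glucose, pyruvate and pentose phosphate metabolism outside the 31, 1 rose and 5 fell with TGF-β1 in control (2.27 and 11.4%, against 5.04 and 3.33% of all tested genes) and 2 rose and 5 fell in Smad7-KO fibroblasts (4.55 and 11.4%, against 5.33 and 4.9%). Txnip, an inhibitor of glucose uptake, fell in both, with log2 fold changes of -1.02 and -1.11, as did Pdp1, a phosphatase that activates pyruvate dehydrogenase, with -0.65 and -0.64. Pygl, the liver-type glycogen phosphorylase, rose in both, with 0.72 and 0.73, Pgm1, a phosphoglucomutase, rose in Smad7-KO fibroblasts with 0.33, Pgam2, the muscle phosphoglycerate mutase, fell in control with -0.79, and Hk3, a hexokinase of myeloid cells, fell in Smad7-KO fibroblasts with -0.73. Between genotypes 6 were higher and 5 lower in Smad7-KO fibroblasts without TGF-β1 (13.6 and 11.4%, against 12.1 and 13.7% of all tested genes), and 4 were higher and 3 lower with it (9.09 and 6.82%, against 5.72 and 7.23%). The counts without TGF-β1 are near the share among all genes. Slc16a7, which encodes the transporter MCT2, was higher by 1.30 and 1.20, Pdp2, a second pyruvate dehydrogenase phosphatase, by 1.15 and 1.12, Hk3 by 0.94 without and Pygl by 0.74 with TGF-β1. Bpgm, the bisphosphoglycerate mutase, was lower at -0.60 and -0.49, Bsg, the partner protein of the MCT transporters, at -0.81 and Pgm2 at -0.47 without, and Slc2a10 at -0.69 and Adpgk at -0.36 with TGF-β1. For Bsg the adjusted p was 0.0241, and the unstimulated control libraries were widely spread, at a mean of 949 CPM (SD 356). The median log2 fold change of this list was between -0.072 and -0.012 over the 4 comparisons.

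Of 42 tested regulators and targets of HIF outside the 31, 8 rose and 5 fell with TGF-β1 in control (19 and 11.9%) and 9 rose and 6 fell in Smad7-KO fibroblasts (21.4 and 14.3%), beside the shares of all tested genes given above. Vhl, the ubiquitin ligase subunit that directs HIF-1α to degradation, rose by 1.53 and 1.76 on the log2 scale. The transcriptional repressors Bhlhe40 and Bhlhe41 rose by 1.51 and 1.80 and by 0.77 and 0.74. Adm, the vasodilator peptide adrenomedullin and a classical HIF target, fell, with -1.50 and -0.97, as did Selenbp1 with -1.07 and -0.91, Zfp395 with -0.78 in control, and Cited2, a competitor of HIF-1α for p300, with -0.81 in Smad7-KO fibroblasts. The list therefore held called genes in both directions, and its median was 0.034 in control and -0.025 in Smad7-KO fibroblasts. Between genotypes 9 were higher and 6 lower in Smad7-KO fibroblasts without TGF-β1 (21.4 and 14.3%) and 4 higher and 3 lower with it (9.52 and 7.14%), against the same shares of all tested genes as above, so the lower counts are near that background. Edn1, endothelin-1, which endothelial cells also make, was lowest at -2.77 and -2.98, beside the lower endothelial markers given above. Plod2, a collagen lysyl hydroxylase, was lower at -0.56 and -0.60, Higd1a at -0.87 without and Cited2 at -0.79 with TGF-β1. Without TGF-β1 the secreted lipase inhibitor Angptl4 was higher by 0.78, the HIF asparaginyl hydroxylase Hif1an by 0.72 and the histone demethylase Kdm4c by 0.69. The adjusted p of Hif1an, Kdm4c and Higd1a without TGF-β1 was 0.0308, 0.0402 and 0.0489. Their unstimulated control libraries were widely spread, with means of 35.2 (SD 12.5), 22.3 (SD 8.17) and 54.5 CPM (SD 25.3). Fits that left out 1 library were not examined for the genes of these 2 lists. With TGF-β1 Zfp395 was higher by 0.87, Tfrc, the transferrin receptor, by 0.61 and Plod1, another lysyl hydroxylase, by 0.57.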

How the data were processed

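RNA-Seq was performed on 12 libraries of mouse cardiac fibroblasts, 3 for each of 4 conditions, with 19056916 to 25371321 counts per library. The deposited files hold raw counts for 35275 genes, and FPKM values that the authors made by dividing each count by gene length and by the total of the library, which held for all 35275 genes (tolerance 0.001). The submitters' processing notes name TopHat2 2.0, Cufflinks 2.1.1 and HTSeq 0.6.1 on mm10 without their roles, and use of strand is not given in the sources used here. Coordinates are those of the deposited table.

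Counts were fitted with edgeR 4.0.16 in R 4.3.3 (filterByExpr with a minimum count of 10, TMM, robust quasi-likelihood, all 12 libraries), with Benjamini-Hochberg adjustment over 15150 genes. Standard errors (SE) come from the fold change and its F value, and 95% intervals from the t distribution of the fit. CPM values are TMM-normalized. Alternatives were DESeq2 1.42.0, its size factors in edgeR, no filter, only the libraries of a comparison, limma 3.58.1 on log2(FPKM + 1) or log2(FPKM + 0.1) for genes at an FPKM of at least 1 in 3 libraries, a replicate block, removal of each library's gene length trend by loess (span 0.3), and leaving out each library. Scripts were tested on simulated data. The genes and lists were chosen with earlier results of these data known. Library values are given for genes called in a comparison. From each pathway list the 3 called genes that rose and the 3 that fell most in a comparison are named, if the average log2 CPM was 1 or more and the groups did not overlap. Promoter sequences are those of RefSeq on GRCm38.p6. Replicates differed beyond sampling noise (chi-square per gene 3.15 to 254), so none was counted as a repeat, and 3 libraries against 3 allow no two-sided exact p under 0.1.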

Additional observations from a re-analysis of the deposited data

How the results depend on the processing

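None of the 29 calls of single genes reversed in the 22 refits, which gave 638 values with the direction kept in all and the call lost in 118. Counts of genes called depended on the processing. With TGF-β1 in control fibroblasts, 5 genes were called higher and 1 lower. With edgeR fitted to those 6 libraries alone 2 were higher, with DESeq2 or with the gene length trend removed 2 were lower, and without 1 library 3 to 7 were higher and 1 to 2 lower. In Smad7-KO fibroblasts, 7 were higher and 1 lower. With edgeR fitted to those 6 alone 5 were lower, with the gene length trend removed 3, with the replicate block and that trend removed 2, and without 1 library 4 to 7 were higher and 1 to 2 lower. In unstimulated Smad7-KO against control fibroblasts, 4 were higher and 5 lower. DESeq2 called 8 higher, the gene length correction 7, limma without a filter 2 and edgeR fitted to those 6 alone 0 higher and 0 lower. No filter gave 3 lower, and leaving out 1 library gave 1 to 8 higher and 1 to 12 lower. With TGF-β1, 4 were higher and 2 lower in Smad7-KO fibroblasts. Both limma fits with a filter called 2 higher, limma without a filter 1 higher and 1 lower, no filter in edgeR 1 lower, and leaving out 1 library 1 to 5 higher and 1 to 2 lower. The cause was not tested. The interaction called 0 in every refit.

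Same-numbered libraries had correlations of their deviations between -0.357 and 0.524, and libraries with different numbers between -0.564 and 0.554. The replicate numbers thus gave no clear sign of pairing, but these ranges cannot exclude it. With the replicate block, TGF-β1 called 5 higher and 1 lower in control and 6 and 1 in Smad7-KO fibroblasts, and the genotype comparisons 4 and 4 without and 4 and 2 with TGF-β1. Under the block the calls of Pfkl with TGF-β1 in Smad7-KO fibroblasts and of Hif1a (adjusted p = 0.0510) and Pfkm (adjusted p = 0.0593) between unstimulated genotypes were lost, Pfkfb2 was called higher between these, and the other calls of single genes were kept. The spread of the unstimulated control libraries, more than depth, differed between conditions, and every comparison shares the estimate of spread.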
